A study of Mus musculus with 6 samples.

Results

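The fibroblast growth factor (FGF) pathway was followed in sorted mouse mesoderm through 86 probe sets that read 37 genes: 22 genes of the FGF family itself, 5 receptor genes, and 10 genes that FGF signalling switches on or that act on it. The probe sets were chosen by the single gene symbol each carries in the annotation of the Affymetrix array, out of 45037 that are not controls. The list of symbols was made with earlier results of these data known. Embryonic stem (ES) cells were differentiated for 4 days into embryoid bodies (EBs), aggregates in which mesoderm forms. A pre-EB step of 2 days was shared by all 6 samples. Cells carrying the receptor Flk1 (gene Kdr) were sorted for RNA. There were 3 groups of 2 arrays. SclKO cells came from a line lacking Scl (gene Tal1, a transcription factor needed for blood formation), derived from J1 ES cells of strain 129S4/SvJae, and were sorted on Flk1 alone. WT Scl+ and WT Scl- cells came from a reporter line, derived from R1 ES cells of a cross of 129/Sv and 129/Sv-CP, in which human CD4 knocked into the Scl locus marks cells that express Scl; they were Flk1+ hCD4+ and Flk1+ hCD4- cells. SclKO differs from both WT groups at once in the knockout, the ES line and the gate, and these cannot be told apart. Whether the 2 replicates of a group were grown separately is not stated, and the p-values then cover only the variation among these 6 arrays, which may be technical.

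FGFs are signals that bind receptor tyrosine kinases at the cell surface with heparan sulfate as a cofactor, and the receptors switch on the Ras and ERK kinase cascade. ERK signalling raises its own inhibitors, among them Dusp6 and the Sprouty genes, and the ETS factors Etv4 and Etv5, so the RNA of these genes is widely used as a readout of the pathway. In the mouse gastrula, Fgf8 and Fgfr1 are needed for cells of the primitive streak to move away and form mesoderm.

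Values are natural logs of the deposited values, and differences are in natural log units. The base of the deposited scale is not stated, so 1 log unit is 2-fold if the natural log is an RMA log2 value and 2.72-fold if the deposited values are linear. On each array 1040 to 1153 values exceeded 65535, the ceiling of a 16-bit scanner, which goes against the linear reading. Folds are given under both readings, in that order, and the second is best taken as an upper figure. A value under its array's 40th percentile, 4.54 to 4.59, is called dim. Probe sets above that limit on at least 2 arrays were tested, 28363 in all, with limma. Tal1 read 5.71 and 6.14 in SclKO, 8.65 and 8.78 in WT Scl+, and 6.52 and 7.97 in WT Scl-, and Kdr lay between 10.83 and 11.35 on all 6. WT Scl+ replicate 2 stood apart: it lay at -78.4 on the first principal component, which held 53.2% of the variance, with the other arrays between -11.5 and 38.1.

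Marker genes of several cell types moved with the groups. The mean level of 3 markers of Flk1+ mesoderm was 9.72 and 9.49 in SclKO, 8.78 and 8.46 in WT Scl+, and 9.73 and 9.29 in WT Scl-, lowest in WT Scl+. The mean level of 5 endothelial markers was 4.93 and 5.92 in SclKO, 7.22 and 8.16 in WT Scl+, and 4.45 and 6.75 in WT Scl-. That of 5 blood markers was 4.62 and 4.83 in SclKO, 7.29 and 7.0 in WT Scl+, and 5.09 and 6.12 in WT Scl-; of these 5, 1 was dim on every array. WT Scl+ was highest on both. Mean levels of 4 cardiac markers lay between 5.26 and 5.54 on all arrays. Those of 5 endoderm markers were 5.57 and 5.29 in SclKO, 5.82 and 5.67 in WT Scl+, and 5.05 and 5.20 in WT Scl-. Those of 3 neural markers, of which 1 was dim on every array, were 5.47 and 5.33, 5.58 and 5.81, and 5.35 and 5.39 in the same order. WT Scl+ was thus highest on both of these as well, by smaller amounts. In such bulk samples fewer cells of a type and less RNA per cell cannot be told apart. The part of these markers in the results that follow was not tested.

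Of the 86 probe sets, 58 were tested, and 27 of the 37 genes had at least 1 tested probe set. The other 28 probe sets were dim on all 6 arrays, at 1.63 to 4.49, and 10 FGF genes had no other: Fgf1, Fgf2, Fgf6, Fgf7, Fgf12, Fgf14, Fgf16, Fgf17, Fgf18 and Fgf23. These were not well above the dim limit with the probe sets used, which gives no level for them. Fgf1, for example, read 4.17 and 4.09 in SclKO, 3.83 and 4.13 in WT Scl+, and 3.95 and 4.38 in WT Scl-. The tested probe sets divide into 20 of FGF genes, 11 of receptors and 27 of feedback and target genes, so several of them read the same gene and are not independent.

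The DNA just before the start of 5 genes is shown to set genes that were higher in SclKO than in WT Scl+ (Dusp6, Etv5, Fgf10 and Spred1) beside one that was lower (Fgf3). They were picked, after their values and motif matches were seen, from the genes with a listed promoter that met 1 further rule. The rule was a limma unadjusted p under 0.05 in the probe set of the gene with the highest mean. Fgf4 and Fgfrl1 also met this and are not shown. The sequences are from RefSeq, build GRCm38.p6, 5′ to 3′ on the gene's strand and ending at the base before the transcript start. Capitals mark a match on either strand to an E-box (CANNTG), the kind of site that Scl binds with its partners, to AGATAA, a site of GATA factors, or to CCGGAA, a site of ETS factors.
Dusp6, chr10:99262981-99263230, plus strand: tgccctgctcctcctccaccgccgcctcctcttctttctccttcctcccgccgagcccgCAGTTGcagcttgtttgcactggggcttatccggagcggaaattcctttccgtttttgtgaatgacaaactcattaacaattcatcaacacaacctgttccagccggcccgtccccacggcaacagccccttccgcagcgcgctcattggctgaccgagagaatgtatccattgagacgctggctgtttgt
Etv5, chr16:22439571-22439820, minus strand: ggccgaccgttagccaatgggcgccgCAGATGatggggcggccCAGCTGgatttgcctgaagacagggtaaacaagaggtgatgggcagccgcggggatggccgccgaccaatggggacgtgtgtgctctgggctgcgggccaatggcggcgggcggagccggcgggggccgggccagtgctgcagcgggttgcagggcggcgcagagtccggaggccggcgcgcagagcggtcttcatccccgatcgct
Fgf10, chr13:118714449-118714698, plus strand: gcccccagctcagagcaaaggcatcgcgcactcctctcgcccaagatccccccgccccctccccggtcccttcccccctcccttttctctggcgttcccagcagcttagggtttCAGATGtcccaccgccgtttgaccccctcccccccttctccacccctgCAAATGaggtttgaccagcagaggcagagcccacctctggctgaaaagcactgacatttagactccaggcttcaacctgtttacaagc
Fgf3, chr7:144838362-144838611, plus strand: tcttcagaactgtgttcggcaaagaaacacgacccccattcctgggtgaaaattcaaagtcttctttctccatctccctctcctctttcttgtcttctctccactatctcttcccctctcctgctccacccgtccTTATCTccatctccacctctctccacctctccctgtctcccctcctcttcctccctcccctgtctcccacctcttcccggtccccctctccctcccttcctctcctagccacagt
Spred1, chr2:117120821-117121070, plus strand: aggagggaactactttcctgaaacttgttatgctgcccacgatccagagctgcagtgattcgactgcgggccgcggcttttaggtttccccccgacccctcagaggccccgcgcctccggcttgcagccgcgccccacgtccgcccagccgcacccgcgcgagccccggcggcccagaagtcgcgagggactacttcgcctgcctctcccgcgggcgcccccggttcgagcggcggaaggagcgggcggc
Dusp6 held 1 E-box, CAGTTG, starting 191 bases before the start. Etv5, shown for 1 of its 2 listed starts, held CAGATG and CAGCTG at 224 and 207 bases, while its other start held none of the 3 motifs, and Fgf10 held CAGATG and CAAATG at 136 and 88 bases. Fgf3 held no E-box but 1 GATA site, read as TTATCT on the strand shown, at 115 bases. Spred1 held none of the 3 motifs. Of those not shown, Fgf4 held 1 E-box, and Fgfrl1 held 1 E-box and 1 ETS match. Such letters are common: 66.2% of 32851 mouse promoters of this length held an E-box, 9.99% held AGATAA and 12% held CCGGAA. A promoter was listed for 28 member genes, 36 starts in all, of which 22 held an E-box, 3 the GATA letters and 4 the ETS letters. A match is a description of the sequence, not a binding site.

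SclKO against WT Scl+ asks how Flk1+ cells without Scl differ from the Flk1+ cells that express it. Dusp6, Spry4, Etv5 and Spred1 were higher in SclKO, as were the ligands Fgf8 and Fgf10 and the receptors Fgfr1 and Fgfrl1, while Fgf3 and Fgf4 were lower. The sizes ran from 0.44 to 1.92 log units upward and from -0.48 to -1.08 downward for the probe set of each gene with the highest mean. None of the 58 member probe sets passed at a limma adjusted p under 0.05, higher or lower; of all probe sets tested 0.00353% were called higher and 0.00705% lower, 3 in all. At an unadjusted p under 0.05, 20 of the 58 were higher in SclKO and 4 lower, against 7.35% and 5.68% of all probe sets tested. In shares, that is 34.5% of the members higher and 6.9% lower. Counting 1 probe set a gene, 8 of 27 genes were higher and 2 lower, against 7.16% and 6.81% of all genes. The 8 higher were 4 feedback genes, 2 ligands and 2 receptors, and the 2 lower were ligands. The arrays of both groups did not overlap for 29 of the 58, higher in SclKO, and for 5, lower, against 24.4% and 18.2% of all probe sets tested. The 20 higher and 4 lower were 12 and 4 without SclKO replicate 1, 15 and 0 without SclKO replicate 2, 25 and 0 without WT Scl+ replicate 1, and 13 and 4 without WT Scl+ replicate 2. The median member differed by 0.32 log units, the median of all tested probe sets by 0.05.

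Of the 27 tested probe sets of the 10 feedback and target genes, 25 had a positive difference and 14 had an unadjusted p under 0.05 in that direction, with 0 in the other, and the median difference was 0.71 log units. These 14 are 51.9% of the 27, against 7.35% of all probe sets tested, but they read only Dusp6, Spry4, Etv5, Spred1 and Il17rd, and probe sets of 1 gene are not independent. The mean level over the 10 genes was 8.39 and 8.34 in SclKO, 7.88 and 7.35 in WT Scl+, and 8.12 and 7.85 in WT Scl-. SclKO thus lay highest on this mean and WT Scl+ replicate 2 lowest.

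Dusp6 encodes a cytoplasmic phosphatase that switches ERK off. It read 10.08 and 10.34 in SclKO, 8.54 and 8.05 in WT Scl+, and 9.27 and 9.05 in WT Scl-. The 3 groups did not overlap, with SclKO highest and WT Scl+ lowest. SclKO exceeded WT Scl+ by 1.92 log units (SE 0.22, 3.78-fold or 6.81-fold; limma unadjusted p = 0.000121, adjusted p = 0.135). That adjusted p ranged from 0.0319 to 0.608 over the alternatives, and the difference from 1.67 to 2.16 with 1 array left out.

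Spry4, a Sprouty protein that inhibits the step from receptor to ERK, read 7.62 and 7.79 in SclKO, 6.63 and 6.08 in WT Scl+, and 6.23 and 6.52 in WT Scl-. Both SclKO arrays lay above all 4 WT arrays, and the WT groups overlapped. SclKO exceeded WT Scl+ by 1.35 log units (SE 0.24, 2.55-fold or 3.85-fold; limma adjusted p = 0.148). All 4 Spry4 probe sets were higher in SclKO, by 0.88 to 1.35 log units against WT Scl+ and by 0.58 to 1.33 against WT Scl-. For Spry2, a related inhibitor, the values were closer together. It read 8.57 and 8.41 in SclKO, 8.37 and 8.13 in WT Scl+, and 8.28 and 8.14 in WT Scl-, a difference of 0.24 log units from WT Scl+ with a 95% interval of -0.18 to 0.65.

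Etv5, an ETS transcription factor induced by FGF, read 9.48 and 9.40 in SclKO, 8.69 and 7.89 in WT Scl+, and 9.26 and 8.57 in WT Scl-. The SclKO arrays lay above all WT arrays, and the WT arrays overlapped. SclKO exceeded WT Scl+ by 1.15 log units (SE 0.34; limma adjusted p = 0.272), or by 0.75 without WT Scl+ replicate 2. The other Etv5 probe sets gave 1.36 and 1.14 log units, the last with the smaller SE of 0.20 and an adjusted p = 0.148. Etv4, its close relative, read 7.38 and 7.46 in SclKO, 6.67 and 7.28 in WT Scl+, and 7.42 and 7.07 in WT Scl-. SclKO exceeded WT Scl+ by 0.44 log units (SE 0.25; limma unadjusted p = 0.124), by 0.14 without WT Scl+ replicate 1 and 0.74 without replicate 2.

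Spred1, a membrane protein that restrains Ras, read 9.16 and 9.06 in SclKO, 8.47 and 7.65 in WT Scl+, and 9.19 and 8.54 in WT Scl-. WT Scl+ lay below both other groups, which overlapped. SclKO exceeded it by 1.05 log units (SE 0.34; limma adjusted p = 0.298), or by 0.63 without WT Scl+ replicate 2. All 7 tested Spred1 probe sets had a positive difference, from 0.02 to 1.05 log units. Il17rd, a membrane inhibitor of FGF receptors also called Sef, read 9.63 and 9.57 in SclKO, 9.35 and 8.13 in WT Scl+, and 9.39 and 9.23 in WT Scl-. In this probe set WT Scl+ replicate 2 was far below its partner. The other Il17rd probe set read 7.91 and 8.62 in SclKO, 7.37 and 7.48 in WT Scl+, and 7.80 and 7.68 in WT Scl-. There SclKO exceeded WT Scl+ by 0.84 log units (limma unadjusted p = 0.0154, adjusted p = 0.279). Flrt3, a membrane protein that promotes FGF signalling in Xenopus embryos, read 7.13 and 7.23 in SclKO, 7.04 and 6.31 in WT Scl+, and 7.51 and 6.98 in WT Scl-. WT Scl+ replicate 2 was lowest.

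Of 20 tested probe sets of FGF genes, 2 were higher in SclKO (Fgf8 and Fgf10) and 4 lower (Fgf3 and Fgf4) at a limma unadjusted p under 0.05. That is 10% and 20%, against 7.35% and 5.68% of all probe sets tested. The share of higher ones was thus near that of all probe sets, and the median difference was 0.06 log units. The 4 lower were all 3 tested probe sets of Fgf3 and the Fgf4 probe set with the highest mean, so they are not independent. Counting 1 probe set a gene, 2 of 12 FGF genes were higher and 2 lower, against 7.16% and 6.81% of all genes. Fgf8, the streak ligand, read 6.90 and 7.03 in SclKO, 6.29 and 6.05 in WT Scl+, and 6.61 and 6.74 in WT Scl-. As for Dusp6, the 3 groups did not overlap and kept the order SclKO, WT Scl-, WT Scl+ from high to low. SclKO exceeded WT Scl+ by 0.79 log units (SE 0.17, 1.73-fold or 2.21-fold; limma unadjusted p = 0.00309, adjusted p = 0.183), and by 0.68 to 0.91 with 1 array left out. Fgf10, a ligand of mesenchyme and of the second heart field, read 8.29 and 8.43 in SclKO, 7.74 and 7.46 in WT Scl+, and 8.01 and 8.22 in WT Scl-, the same order without overlap. Fgf10 was higher in SclKO than in WT Scl+ by 0.76 log units (SE 0.18), with a limma adjusted p = 0.206.

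Fgf3, a ligand known for its part in the inner ear and the tail, went the other way. It read 9.34 and 8.21 in SclKO, 10.29 and 9.41 in WT Scl+, and 9.27 and 9.42 in WT Scl-. SclKO lay below WT Scl+ without overlap, by -1.08 log units (SE 0.43; limma unadjusted p = 0.0467, adjusted p = 0.377), but overlapped with WT Scl-. The size rested on SclKO replicate 2 and WT Scl+ replicate 1: without either it was -0.51 and -0.64. The other Fgf3 probe sets gave -1.23 and -0.73 log units.

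Fgf4, a ligand of the epiblast and streak, gave no single answer. The probe set with the highest mean read 5.40 and 5.32 in SclKO, 5.97 and 5.72 in WT Scl+, and 5.90 and 5.80 in WT Scl-, and differed from WT Scl+ by -0.48 log units (SE 0.17; limma adjusted p = 0.323). Of the 4 Fgf4 probe sets, 2 had a positive and 2 a negative difference from WT Scl+, from -0.65 to 0.21. Fgf5, a marker of the epiblast, had 2 tested probe sets. In 1 of them, at 5.16 to 5.84, SclKO exceeded WT Scl+ by 0.30 log units, with overlap. There it exceeded WT Scl- by 0.36, without overlap. The probe set with the highest mean varied most within a group. It read 9.23 and 8.91 in SclKO, 8.85 and 5.70 in WT Scl+, and 7.88 and 6.34 in WT Scl-. SclKO lay above both WT groups, by 1.79 log units over WT Scl+ (SE 1.02; limma unadjusted p = 0.128), which became 3.37 without WT Scl+ replicate 1 and 0.21 without replicate 2. The mean level of 5 markers of pluripotent cells was 6.56 and 6.44 in SclKO, 6.74 and 5.15 in WT Scl+, and 6.13 and 5.51 in WT Scl-, so that it was also lower on replicate 2 of both WT groups; its part in the Fgf5 values was not tested.

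The remaining FGF genes showed no separation of all 3 groups beyond their spread in the probe set with the highest mean, apart from Fgf9, whose 6 values lay between 4.47 and 4.73, at the dim limit. Fgf15, the mouse gene of an intestinal hormone that acts on the liver, was at 7.21 ± 0.65 in SclKO, 7.22 ± 0.86 in WT Scl+ and 7.20 ± 0.38 in WT Scl- (mean ± SD, n = 2 each). Fgf13, a member that is not secreted and binds sodium channels inside the cell, was at 7.45 ± 0.17 in SclKO, 7.17 ± 0.60 in WT Scl+ and 6.91 ± 0.29 in WT Scl- (mean ± SD, n = 2 each). Fgf20 was near the dim limit, at 4.73 ± 0.08 in SclKO, 4.69 ± 0.46 in WT Scl+ and 4.74 ± 0.15 in WT Scl- (mean ± SD, n = 2 each).

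Of the receptors, Fgfr1, the main FGF receptor of gastrulating mesoderm in the mouse, read 9.07 and 8.76 in SclKO, 8.36 and 8.08 in WT Scl+, and 8.99 and 8.74 in WT Scl-. WT Scl+ was lower than both other groups, which overlapped. SclKO exceeded WT Scl+ by 0.69 log units (SE 0.20; limma adjusted p = 0.269), and the other 2 Fgfr1 probe sets gave 0.78 and 0.23. Fgfrl1, a receptor without the kinase domain, read 8.97 and 9.02 in SclKO, 8.66 and 8.45 in WT Scl+, and 8.88 and 8.69 in WT Scl-. It was higher in SclKO than in WT Scl+ by 0.44 log units (SE 0.17; limma adjusted p = 0.353), and its other probe set gave 0.62. Fgfr2 read 7.34 and 5.60 in SclKO, 6.82 and 5.44 in WT Scl+, and 8.37 and 6.95 in WT Scl-. In this probe set, replicate 1 exceeded replicate 2 by over 1.3 log units in each group. SclKO differed from WT Scl+ by 0.34 log units with a 95% interval of -1.53 to 2.21. From WT Scl-, SclKO differed by -1.19 log units (SE 0.77; limma unadjusted p = 0.173), with overlap, and WT Scl+ by -1.53 (SE 0.77; limma unadjusted p = 0.0932, adjusted p = 0.616), without overlap. The other tested Fgfr2 probe set read 6.33 and 5.26 in SclKO, 6.42 and 6.08 in WT Scl+, and 7.39 and 6.27 in WT Scl-. There SclKO differed from WT Scl+ by -0.46 log units, the opposite direction. WT Scl+ differed from WT Scl- by -0.58 and SclKO by -1.03, and all groups overlapped. For Fgfr3 and Fgfr4 SclKO and WT Scl+ overlapped in every tested probe set.

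The second question was whether SclKO cells also differ from WT Flk1+ cells that do not show the Scl reporter. Spry4 and Dusp6 were higher in SclKO here too, and Fgf4 lower, while most of the other members named above differed less. Spry4 exceeded WT Scl- by 1.33 log units (SE 0.24; limma unadjusted p = 0.00125, adjusted p = 0.683), and by 1.19 to 1.48 with 1 array left out. Dusp6 exceeded it by 1.05 log units (SE 0.22; limma unadjusted p = 0.00311, adjusted p = 0.82). Fgf4 differed by -0.49 log units (SE 0.17; limma unadjusted p = 0.0253, adjusted p = 0.895), with 3 of its 4 probe sets negative. Fgfr1 differed by 0.05 log units with a 95% interval of -0.44 to 0.54, Etv5 by 0.53 with an interval of -0.29 to 1.35, and Fgf8 by 0.29 with an interval of -0.12 to 0.70.

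Over all members, 6 of the 58 probe sets were higher in SclKO than in WT Scl- at an unadjusted p under 0.05 and 1 lower, against 2.7% and 2.77% of all probe sets tested. The 6 higher ones were 4 of Spry4, 1 of Dusp6 and 1 of Fgfrl1. Leaving out 1 array of this comparison gave 4 or 5 higher, and 0 to 6 lower, the 6 without SclKO replicate 1; leaving out either WT Scl+ array gave 10 higher and 2 lower. Counting 1 probe set a gene, 2 of 27 were higher and 1 lower, against 3.15% and 2.38% of all genes. The groups did not overlap for 22 probe sets, higher in SclKO, and for 5, lower, against 21.7% and 19.5%. The adjusted p was 0.416 or more for every member, and the calls at an adjusted p under 0.05 were again 0.00353% and 0.00705% of all probe sets. The comparison shares its SclKO arrays with the one before, so the results are not independent of each other.

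The third comparison, WT Scl+ against WT Scl-, lies within 1 cell line and asks what sets the cells that show the Scl reporter apart. The 2 WT Scl- arrays differed in Tal1 RNA, at 6.52 and 7.97. Replicate 2 lay nearer to WT Scl+ (8.65 and 8.78) than to SclKO (5.71 and 6.14). Of 27 genes, 9 were lower in WT Scl+ without overlap and 1 higher, against 21.2% and 16.6% of all probe sets tested. The share of all genes was not counted for this rule. Among the 9, Dusp6, Fgfr1, Fgf10 and Fgf8 had a limma unadjusted p under 0.05. The others were Fgfr2, Spred1, Fgfrl1, Fgfr4 and Fgf21. The Fgfr2 difference of -1.53 log units was the largest of any member between the WT groups. The other tested Fgfr2 probe set gave -0.58, with overlap. Fgfr4 and Fgf21 differed by only -0.12 and -0.10 log units, near the dim limit. Dusp6 differed by -0.87 log units (SE 0.22; limma unadjusted p = 0.00779, adjusted p = 0.439), from -0.62 to -1.11 with 1 array left out. Fgfr1 differed by -0.64 (SE 0.20; limma adjusted p = 0.471), Fgf10 by -0.52 (SE 0.18; limma adjusted p = 0.497) and Fgf8 by -0.50 log units (SE 0.17; limma adjusted p = 0.481). Spred1 differed by -0.80 log units (SE 0.34; limma unadjusted p = 0.0529) in the probe set with the highest mean, from -1.22 to -0.39 with 1 array left out, and 2 of its other probe sets had an unadjusted p of 0.0262 and 0.0373. For Etv5 the probe set with the highest mean gave -0.62 log units with overlap, and the other probe sets -0.83 and -0.83 without overlap. Spry4, by contrast, differed by -0.02 log units with a 95% interval of -0.59 to 0.56 in that probe set, and by -0.02 to -0.39 over its 4 probe sets. Fgf3 lay higher in WT Scl+ in all 3 of its probe sets, by 0.24 to 0.69 log units, with no unadjusted p under 0.05.

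At an unadjusted p under 0.05, 9 of the 58 member probe sets were lower in WT Scl+ and 0 higher, against 4.94% and 4.44% of all probe sets tested. Counting 1 probe set a gene, 4 of 27 were lower and 0 higher, against 3.75% and 5.39% of all genes. The arrays did not overlap for 22, lower in WT Scl+, and for 4, higher, against 21.2% and 16.6%. With limma 0% of all probe sets passed at an adjusted p under 0.05 in either direction, and the lowest adjusted p of a member was 0.439. Of the 9 lower probe sets, 5 belonged to feedback genes, 2 to receptors and 2 to ligands. Without WT Scl- replicate 1, 3 were lower and 0 higher. Without WT Scl+ replicate 1, 16 were lower and 2 higher, and without WT Scl+ replicate 2, 3 were lower and 5 higher.

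Other genes of the pathway are given by their counts, from lists made by role but with earlier results of these data known. The counts are to be read against 7.16% of all genes higher and 6.81% lower between SclKO and WT Scl+. Whether these lists differ from the FGF genes was not tested. Of the cascade from receptor to ERK, 14 of 21 listed genes were analysed here, and their median difference between SclKO and WT Scl+ was 0.06 log units, with 1 of 14 higher at an unadjusted p under 0.05 and 0 lower, near the share of all genes. That gene was Braf, a kinase of the cascade, higher in SclKO by 0.68 log units and lower in WT Scl+ than in WT Scl- by -0.97. Gab1, an adaptor of receptor kinases, exceeded its WT Scl- level by 0.76 log units in SclKO and by 0.86 in WT Scl+. Of 10 further ERK response genes tested, 1 was higher and 1 lower in SclKO than in WT Scl+, with a median of 0.13, again close to the share of all genes for so few genes. The higher one was Dusp5, a nuclear ERK phosphatase (0.56 log units; 0.28 without WT Scl+ replicate 2). The lower one was Phlda1, at 8.39 and 8.63 in SclKO, 9.98 and 10.02 in WT Scl+, and 8.35 and 9.44 in WT Scl-. It was thus highest in WT Scl+, the reverse of Dusp6, with a difference of -1.49 between SclKO and WT Scl+ and of 1.11 between WT Scl+ and WT Scl-. Dusp4, another ERK phosphatase, was higher than in WT Scl- both in SclKO, by 0.84, and in WT Scl+, by 0.49 log units. The early response gene Ier2 exceeded WT Scl- by 0.65 in WT Scl+. With the WT groups compared, 3 of these 10 genes (Dusp4, Ier2 and Phlda1) were higher in the Scl-expressing cells at a limma unadjusted p under 0.05. None (0) was lower, and the median difference of the 10 was 0.01 log units. The shares of all genes were 5.39% higher and 3.75% lower. Among the 10 feedback and target genes, 0 were higher and 1 lower by the same rule.

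Of 6 tested co-receptors and carriers, 1 was higher in SclKO than in WT Scl+ at a limma unadjusted p under 0.05 and 0 lower. The shares of all genes were 7.16% and 6.81%, and the median difference of the 6 was 0.07 log units. Between WT Scl+ and WT Scl-, 0 were higher and 2 lower, against 5.39% and 3.75% of all genes. Cdh2, the adhesion protein N-cadherin that can bind FGF receptors, read 10.94 and 10.93 in SclKO, 9.79 and 9.24 in WT Scl+, and 10.89 and 10.56 in WT Scl-. Like Fgfr1 it was lowest in WT Scl+, with a difference of 1.43 log units between SclKO and WT Scl+ (limma adjusted p = 0.139) and of -1.21 between WT Scl+ and WT Scl-. Flrt1, a relative of Flrt3, was lower than in WT Scl- in both SclKO, by -1.02, and WT Scl+, by -0.83 log units, from values close to the dim limit. Of 19 tested genes of heparan sulfate synthesis and its core proteins, 3 were higher in SclKO than in WT Scl+ and 0 lower, against 7.16% and 6.81% of all genes, with a median of 0.21 log units. They were Sulf1, which removes sulfate groups from heparan sulfate (1.29; 0.74 without WT Scl+ replicate 2), Gpc3, a glypican core protein (0.79), and Ext1, which builds the chain (0.77; 0.34 without WT Scl+ replicate 2). Gpc3 was also lower in WT Scl+ than in WT Scl-, by -0.79. None of these genes passed at an adjusted p under 0.05.

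Of 3 listed mesoderm genes that depend on Fgf8 or Fgfr1 in the mouse gastrula, 2 were analysed here, and both were higher in SclKO than in WT Scl+. Snai1, a repressor that drives cells out of the epithelium, read 7.13 and 6.91 in SclKO, 5.79 and 4.97 in WT Scl+, and 6.91 and 5.85 in WT Scl-. Its difference between SclKO and WT Scl+ was 1.64 log units (limma adjusted p = 0.223). Tbx6, a factor of paraxial mesoderm, differed by 0.92 log units between SclKO and WT Scl+ (limma adjusted p = 0.278) and by -0.76 between WT Scl+ and WT Scl- (limma adjusted p = 0.506).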

How the data were processed

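RNA of 6 samples was measured on Affymetrix mouse arrays. Per the submitters' processing notes, the tools were limma, affy and RMA, without versions. They deposited 1 signal value per probe set and array, not on a log scale and with no unit stated. The natural log ran from 1.18 to 14.85, and 1040 to 1153 values per array exceeded 65535, the ceiling of a 16-bit scanner. Array medians of the deposited values lay between 180.6 and 190.5. Arrays have no read depth, and their number limits the precision. The 64 control probe sets were left out, and 0 columns were unused.

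Gene symbols came from the platform annotation (1 symbol for 34945 probe sets, several for 932, none for 9160), and names of other genes were updated through RefSeq. All 6 arrays were fitted with a mean per group in limma 3.58.1 (R 4.3.3), two-sided, with 3 residual and 3.13 prior degrees of freedom, with Benjamini-Hochberg adjustment across all 28363 tested probe sets. The fit was tested on simulated data. The fit was made on probe sets because the members are probe sets; 1 probe set a gene, 12922 genes, was an alternative. Members, lists and tests were chosen with earlier results of these data known. Given array by array were members at an unadjusted p under 0.05 without overlap (probe set with the highest mean), the brightest gene of each role, and 10 genes fixed by name; Il17rd and Flrt3 were added after their values were seen, and genes of other lists were named at an unadjusted p under 0.05 without overlap. The design assumed log values, so the natural log was taken first.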

Additional observations from a re-analysis of the deposited data

How the results depend on the processing

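Alternatives were compared for the number of probe sets called at an adjusted p under 0.05, the number of members at an unadjusted p under 0.05, and the differences of named genes. Where 1 array is left out, the lone array is assumed to vary like the others. For SclKO against WT Scl+, limma called 3 probe sets; the count was 6 with the replicate block, 1 with probe sets above the limit on all arrays, 1 with 1 probe set a gene, 27 with only the 4 arrays compared, 32 with a trended robust prior, and 0 to 1172 with 1 array left out. Its 24 members became 10 with 1 probe set a gene and 15 to 25 with 1 array left out. For SclKO against WT Scl-, 3 called probe sets became 1 with 1 probe set a gene, 11 with a trended robust prior and 0 to 3 with 1 array left out, and 7 members became 3 with 1 probe set a gene, 10 with the replicate block, 12 with only the 4 arrays compared and 4 to 12 with 1 array left out. For WT Scl+ against WT Scl-, 0 called became 0 to 46 with 1 array left out, and 9 members became 4 with 1 probe set a gene, 13 with the replicate block and 3 to 18 with 1 array left out. At an unadjusted p under 0.05, 1260 probe sets were higher and 1400 lower there by limma.

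Members passed at an adjusted p under 0.05 between SclKO and WT Scl+ under 2 alternatives: Dusp6 with a trended robust prior, and 7 probe sets of Dusp6, Etv5, Spry4, Il17rd and Flrt3 without WT Scl+ replicate 1, which leaves the array that stood apart.

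Pairings with an alternative were counted for the genes fixed by name. Genes at a limma unadjusted p under 0.05 without overlap in that comparison were counted too, as was Spred1 between WT Scl+ and WT Scl-. For SclKO against WT Scl+, differences kept their direction and their side of an unadjusted p of 0.05 in 244 pairings. For SclKO against WT Scl- the count was 152, and for WT Scl+ against WT Scl- it was 211. In the same order, that side was lost in 49, 7 and 34 pairings and gained in 3, 6 and 15. Sign changes touched differences that were small or spread widely. Between WT Scl+ and WT Scl-, Fgf4 became 0.02 and Spry4 0 with 75th percentiles aligned, and with 1 array left out the differences ranged from -0.13 to 0.12 for Fgf4, -1.41 to 1.74 for Fgf5, -0.08 to 0.16 for Spry2, -0.30 to 0.26 for Spry4 and -0.57 to 0.03 for Etv4. With 1 array left out, Fgfr2 ranged from -0.53 to 1.21 between SclKO and WT Scl+, and between SclKO and WT Scl- Fgfr1 ranged from -0.10 to 0.21 and Etv4 from -0.01 to 0.35. Named genes outside these counts changed sign too with 1 array left out, among them Spred1, Flrt3 and Il17rd in the probe set with the highest mean. Between SclKO and WT Scl-, Spred1 ranged from -0.08 to 0.57 and Flrt3 from -0.32 to 0.20. Il17rd ranged from -1.18 to 0.04 between WT Scl+ and WT Scl-. The cause of these changes was not tested. Same-numbered arrays deviated together only weakly (r = 0.24, 0.21 and 0.21 across probe sets for the 3 pairs of groups), and the labels do not say that a number marks a shared culture, so the replicate block was not taken as a pairing. With the replicate block, Fgfr2 had a limma unadjusted p of 0.000226 between WT Scl+ and WT Scl- and of 0.000765 between SclKO and WT Scl-. Between WT Scl+ and WT Scl-, Etv5 had a limma unadjusted p of 0.0371 and Spred1 of 0.014. For Fgf5 it was 0.037 between SclKO and WT Scl+ and 0.0273 between SclKO and WT Scl-. All of these were over 0.05 without the block. The block moved no other gene in the counted pairings across 0.05, and named genes outside those pairings were not checked.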
